A study of Mus musculus with 7 samples.

Results

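The Cyp2a and Cyp2b genes encode cytochromes P450 of the liver, and 9 of them were looked up by symbol in mice fed a steatohepatitis diet. They were Cyp2a4, Cyp2a5, Cyp2a12, Cyp2a22, Cyp2b9, Cyp2b10, Cyp2b13, Cyp2b19 and Cyp2b23. They were chosen with fold changes of this same comparison known, so their differences between the groups are given as a description, without a p-value. Of the 23347 genes in the count table, 7 were on this list. Cyp2b19 and Cyp2b23 were not among them, so no levels are given for them and only their sequence and gene order were examined. After a filter on low counts, 6 of these 7 were among the 15179 genes tested, and Cyp2b10 was too low to be kept.

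Liver RNA was sequenced from 7 male mice on a C57BL/6 background, 1 library per mouse. The B4galt1 flox/flox group (n = 4) carried the floxed B4galt1 allele, and the B4galt1 hep-/- group (n = 3) carried it together with Alb-Cre, a Cre recombinase driven by the albumin promoter, which is active in hepatocytes. The controls were littermates from the same breeding, and their sample labels read WT. Mice of both groups were 6 to 8 weeks old when they were put on the CDAHFD, a high-fat diet without choline in which amino acids replace protein, and they ate it for 15 weeks. B4galt1 encodes a galactosyltransferase of the Golgi, and the comparison asks what its loss from hepatocytes does to a liver with steatohepatitis.

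Cytochromes P450 are heme enzymes of the endoplasmic reticulum that insert oxygen into steroids, fatty acids, drugs and toxins, with electrons passed on by the reductase Por and by cytochrome b5. Cyp2a5 is the coumarin 7-hydroxylase of mouse liver and is known to rise in liver injury, and its near copy Cyp2a4 is a steroid 15alpha-hydroxylase. Cyp2b10 is the classic target of the nuclear receptor CAR. Cyp2a4, Cyp2b9 and Cyp2b13 are known from adult mice as genes expressed more in female than in male liver, a difference set by the pattern of growth hormone release.

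The genes lie in one cluster on mouse chromosome 7. In the RefSeq order of GRCm38.p6 the protein-coding P450 genes run Cyp2b10, Cyp2b13, Cyp2b9, Cyp2a4, Cyp2b23, Cyp2b19, Cyp2g1, Cyp2a5, Cyp2a22 and Cyp2a12. Cyp2a4 and Cyp2a5 are near copies although Cyp2b23, Cyp2b19 and Cyp2g1 lie between them, and their reference transcripts (GENCODE M21) were 98.2% identical over the aligned length. For Cyp2a12 and Cyp2a22 the value was 91.1%, and for Cyp2b9 and Cyp2b13 it was 89.2%. How the authors' counting treated reads that match more than 1 gene is not given in the sources used here, so a level of 1 copy can hold reads of the other. Of all 150-base stretches of the Cyp2a4 transcript, 4.2% also occurred unchanged in another gene, Cyp2a5. The shares were 5.8% for Cyp2a5, 3.7% for Cyp2a12 and 3.5% for Cyp2a22, and no such stretch of Cyp2b9 was shared. Of Cyp2b13, 5.0% was shared with the predicted gene Gm45225. With stretches of 100 bases the highest share was 14.4%, for Cyp2a5.

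The copies were also compared upstream of their starts. The 250 bases before the RefSeq start are shown for the pairs whose members differed most in fold change, Cyp2a4 against Cyp2a5 and Cyp2b9 against Cyp2b13, in lower case with the bases that differ from the other copy in capitals. All are read on the plus strand of GRCm38.p6, at chr7:26306942-26307191 for Cyp2a4, chr7:26835089-26835338 for Cyp2a5, chr7:26173159-26173408 for Cyp2b9 and chr7:26061245-26061494 for Cyp2b13.
Cyp2a4: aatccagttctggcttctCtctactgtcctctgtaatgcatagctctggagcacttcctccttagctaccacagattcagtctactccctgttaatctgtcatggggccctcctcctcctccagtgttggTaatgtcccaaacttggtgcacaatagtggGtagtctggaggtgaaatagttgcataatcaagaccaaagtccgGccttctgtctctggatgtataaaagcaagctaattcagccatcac
Cyp2a5: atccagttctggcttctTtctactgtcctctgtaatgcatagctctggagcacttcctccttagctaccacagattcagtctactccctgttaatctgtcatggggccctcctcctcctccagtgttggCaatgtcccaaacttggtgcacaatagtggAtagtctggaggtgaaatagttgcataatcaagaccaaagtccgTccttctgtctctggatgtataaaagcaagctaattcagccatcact
Cyp2b9: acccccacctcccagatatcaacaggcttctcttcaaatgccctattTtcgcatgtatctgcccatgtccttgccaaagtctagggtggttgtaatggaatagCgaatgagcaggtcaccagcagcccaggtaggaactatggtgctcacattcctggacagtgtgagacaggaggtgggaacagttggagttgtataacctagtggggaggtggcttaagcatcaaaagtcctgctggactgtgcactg
Cyp2b13: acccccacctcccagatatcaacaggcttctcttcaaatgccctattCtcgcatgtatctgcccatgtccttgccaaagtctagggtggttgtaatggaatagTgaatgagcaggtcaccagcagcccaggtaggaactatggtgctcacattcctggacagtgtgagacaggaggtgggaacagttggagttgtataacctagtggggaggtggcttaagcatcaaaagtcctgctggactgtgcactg
The Cyp2a4 and Cyp2a5 windows matched at 245 of 249 aligned bases (98.4%). The Cyp2b9 and Cyp2b13 windows matched at 248 of 250 (99.2%), with differences at -203 and -147 counted from the start. By contrast the Cyp2a12 and Cyp2a22 windows were 82.8% identical, and those of Cyp2b9 and Cyp2b10 were 71.7% identical.

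Short motifs of factors known to act on these genes were searched on both strands of the same windows, with letters chosen while these sequences were in view. TTATGCAA, the core bound by the PAR bZIP factors Dbp, Tef and Hlf and also by C/EBP factors, was found in Cyp2a4 at -70 to -63 and in Cyp2a5 at -71 to -64, in both on the minus strand, so that it reads TTGCATAA above. It was also present in Cyp2b10, Cyp2b19 and Cyp2b23, and in 0.69% of 32841 mouse promoters of this length. CAAAGTCC, a core bound by Hnf4a, was in Cyp2a4 and Cyp2a5 and in 1.20% of promoters. TATAAA was in all 4 Cyp2a windows and in 12.37% of promoters. The Ah receptor core GCGTG was in the window of Cyp2b10 (28.17% of promoters). Neither TTCNNNGAA, the spacing bound by STAT5 (7.02% of promoters), nor TGACNNNGC, bound by NRF2 (10.16%), was found in any of the 9 windows. The motif matches of Cyp2a4 and Cyp2a5 contained none of the 4 differing bases, which lay at -232, -120, -90 and -46 in Cyp2a4. A match describes letters and was not tested as a binding site.

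**Figure D1:**
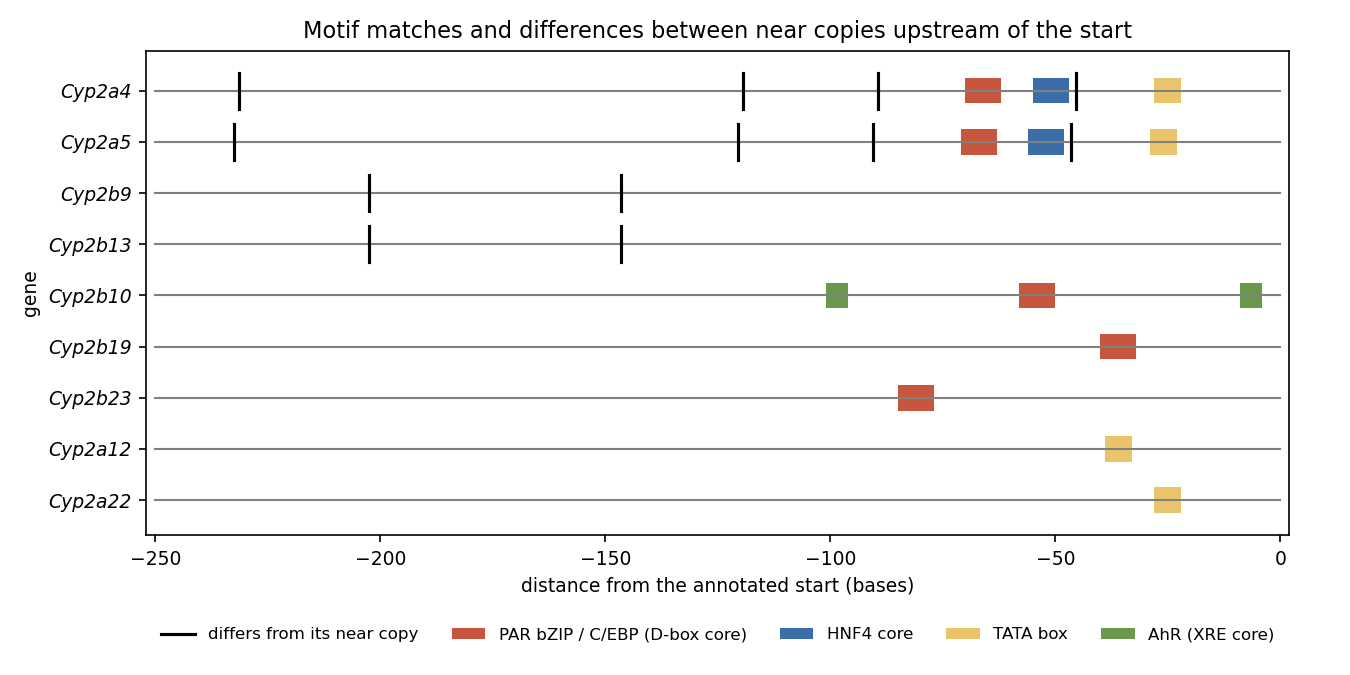
Motif matches (coloured boxes) and bases that differ between near copies (black ticks, drawn for the Cyp2a4 and Cyp2a5 pair and the Cyp2b9 and Cyp2b13 pair) over the 250 bases before the start of each gene; the horizontal axis is the distance from the start in bases. Cyp2a4 and Cyp2a5 carry the same 3 motif matches, shifted by 1 base, and differ at 4 bases, while Cyp2b9 and Cyp2b13 carry no match and differ at 2.

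The control libraries held 37838654 to 39668509 counts and those labelled B4galt1 hep-/- held 30608271 to 34586588. B4galt1 itself was at 48.7, 53.0, 49.2 and 51.6 CPM (counts scaled to library size) in the controls and at 28.4, 23.9 and 53.7 CPM in the livers labelled B4galt1 hep-/-, so the third of these was above every control and the groups overlapped. Values without that mouse are therefore given for the 6 tested Cyp2a and Cyp2b genes, and for those other genes refitted without each mouse whose call changed when it was left out. Transcripts of the 13 mitochondrially encoded genes took 3.88% to 8.0% of counts in the controls and 14.4% to 22.6% in the livers labelled B4galt1 hep-/-. Hepatocyte markers were high in both groups (10 markers, summed 81607 to 122987 against 99321 to 157358 CPM, 0 of 10 called, that is, past the thresholds of 0.05 for the adjusted p and 0.58 for the size of the log2 fold change), and 5 of 8 macrophage markers were lower by the same rule (summed 1342 to 3219 against 591 to 731 CPM). Xist gave at most 10 counts in any library, and Ddx3y, Uty, Kdm5d and Eif2s3y gave at least 209 in each, as male tissue does. In bulk liver, fewer cells of a type and less RNA per cell cannot be told apart, and the part of cell make-up or mitochondrial RNA in the differences below was not tested.

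Among the 6 tested Cyp2a and Cyp2b genes, 4 were past both thresholds with a higher level in the livers labelled B4galt1 hep-/- (Cyp2a4, Cyp2a22, Cyp2b9 and Cyp2b13) and 0 with a lower one. Of all tested genes 8.0% were called higher and 7.83% lower, and since the genes were picked on this contrast nothing is read from their count. In 5 of the 6 the groups did not overlap, against 28.6% of all tested genes. The median log2 fold change of the 6 was 1.14, and that of all tested genes was 0.02. The filter dropped Cyp2b10, so the counts are not over every gene of the cluster. Fold changes are from edgeR's quasi-likelihood fit with their standard errors (SE), and CPM values are scaled by the trimmed mean of M-values (TMM).

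**Figure D2:**
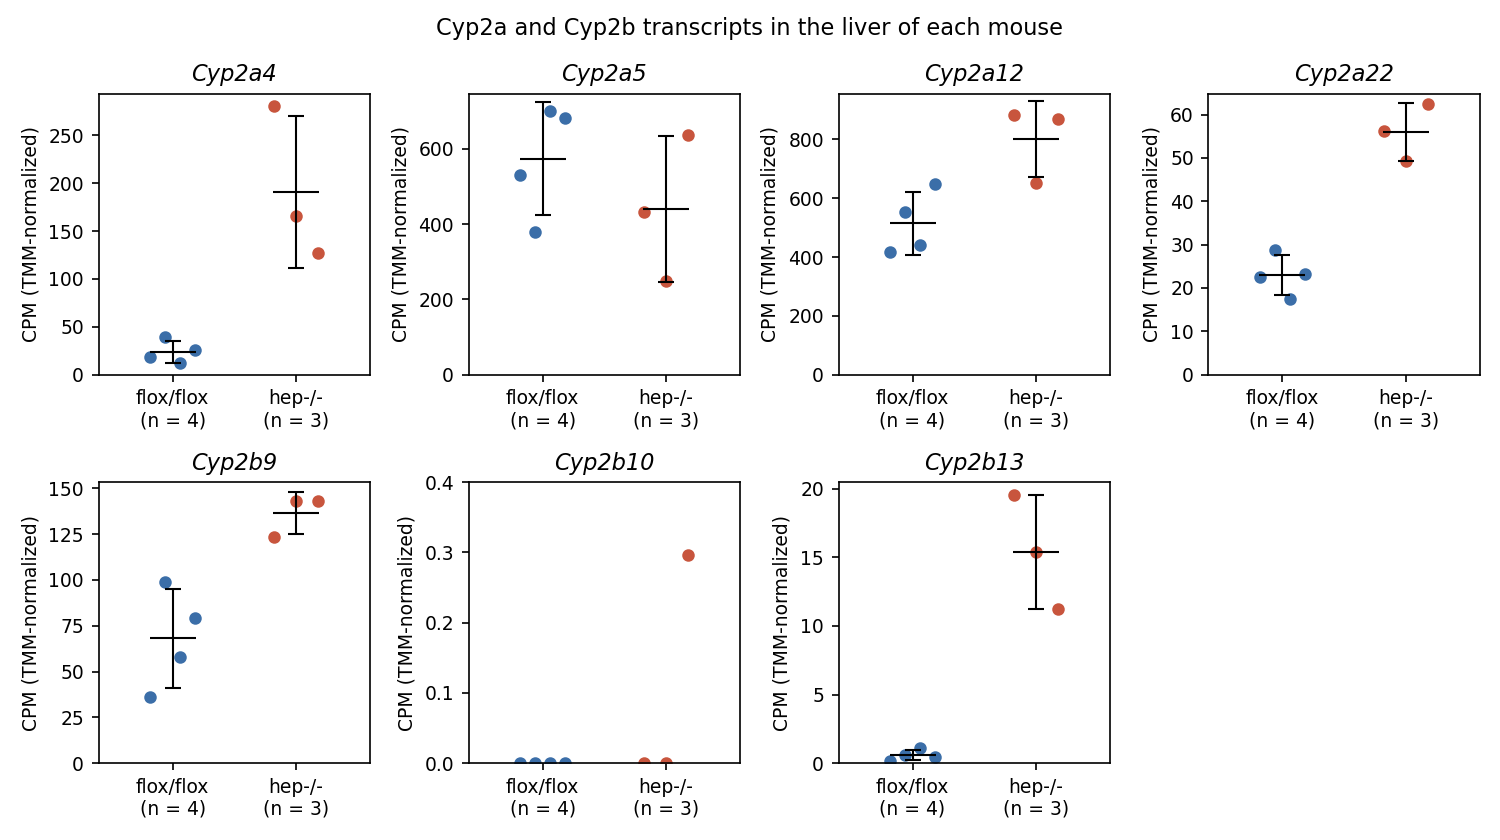
TMM-normalized CPM (vertical axes, linear from 0) of the 7 measured Cyp2a and Cyp2b genes in each B4galt1 flox/flox (n = 4, blue) and B4galt1 hep-/- (n = 3, red) liver; points are mice, and black bars are the mean and SD, which are left out for Cyp2b10. Cyp2a4, Cyp2a22 and Cyp2b13 are wide apart between the groups, Cyp2a12 and Cyp2b9 are narrowly apart, Cyp2a5 overlaps, and Cyp2b10 is above 0 in 1 mouse.

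Cyp2a4, the steroid 15alpha-hydroxylase, was at 18, 39.1, 12.3 and 25.3 CPM in the controls and at 280, 165 and 127 CPM in the livers labelled B4galt1 hep-/-. Every one of the 3 was more than 3 times the highest control. The means were 23.7 ± 11.6 CPM (SD, n = 4) and 191 ± 79.6 CPM (SD, n = 3), a log2 fold change of 3.01 (SE 0.38), and the gene ranked 32 of 15179 from the highest fold change. Without the third B4galt1 hep-/- mouse the log2 fold change was 3.23.

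Its near copy Cyp2a5, the coumarin 7-hydroxylase, was at 532, 379, 701 and 682 CPM in the controls and at 434, 250 and 637 CPM in the livers labelled B4galt1 hep-/-. The ranges overlapped, with the highest values in the control group. The means were 574 ± 150 CPM (SD, n = 4) and 440 ± 194 CPM (SD, n = 3), and the log2 fold change of -0.38 (SE 0.32) was close to its standard error. Without the third B4galt1 hep-/- mouse it was -0.75, still not past the thresholds.

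The pair was also taken as 1 unit, since reads of one copy could have been counted for the other. The summed level was 597 ± 141 CPM (SD, n = 4) in the controls and 631 ± 189 CPM (SD, n = 3) in the livers labelled B4galt1 hep-/-, with overlapping ranges and a log2 fold change of 0.08 (SE 0.27). So the 8.06-fold higher Cyp2a4 stood beside a pair total that was not called different. In CPM the higher mean of Cyp2a4 was offset for the most part by the lower mean of Cyp2a5, and whether reads shared by the copies took part in this was not tested. Per transcript length, as FPKM, which scales fragments to transcript length and library size, Cyp2a5 over Cyp2a4 was 29.5, 9.70, 56.9 and 27.0 in the controls and 1.55, 1.51 and 5.0 in the livers labelled B4galt1 hep-/-. This ratio, which does not depend on how libraries are scaled, did not overlap between the groups. Over the 7 mice, deviations of log2 CPM from the group means correlated at r = -0.47 between Cyp2a4 and Cyp2a5 (Pearson, n = 7 mice that share library scaling, a description).

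Cyp2a12, which hydroxylates steroids and bile acids, was at 417, 551, 440 and 648 CPM in the controls and at 882, 651 and 868 CPM in the livers labelled B4galt1 hep-/-. The groups did not overlap, but the fourth control and the second B4galt1 hep-/- liver were nearly level. Mean CPM was 514 ± 107 and 800 ± 130 (SD, n = 4 and 3), with a log2 fold change of 0.64 (SE 0.23). The gene was not called by edgeR and was called by DESeq2 and by limma-voom with sample weights, at 0.64 and 0.65. Without the third B4galt1 hep-/- mouse its edgeR log2 fold change was 0.57.

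Cyp2a22, its near copy, is a P450 whose substrates are less well described. It was at 22.4, 28.9, 17.5 and 23.2 CPM in the controls and at 56.1, 49.3 and 62.5 CPM in the livers labelled B4galt1 hep-/-. The spread within each group was small and the groups did not overlap. Mean CPM was 23.0 ± 4.64 and 56.0 ± 6.64 (SD, n = 4 and 3), with a log2 fold change of 1.28 (SE 0.20), or 1.19 without the third B4galt1 hep-/- mouse. Summed with Cyp2a12 the log2 fold change was 0.67 (SE 0.23) and the pair was not called, with Cyp2a12 holding most of its counts.

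Cyp2b9, a P450 known from female mouse liver, was at 36.3, 99.0, 58.1 and 79.3 CPM in the controls and at 124, 143 and 143 CPM in the livers labelled B4galt1 hep-/-. The 3 were close together and above all controls, which themselves spread almost 3-fold. Mean CPM was 68.2 ± 27.0 and 137 ± 11.3 (SD, n = 4 and 3), with a log2 fold change of 1.0 (SE 0.29). The call was the least stable of the 4. It was lost without the third (0.93) or the fourth (1.08) control, without the first (1.06), the second (0.97) or the third (0.96) B4galt1 hep-/- mouse, with limma-voom (0.78) and with log2(FPKM + 1) over all genes above 0 (0.95).

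Cyp2b13, its near copy and another P450 of female mouse liver, was almost absent from the controls, at 0.184, 0.602, 1.10 and 0.452 CPM, which rest on 8 to 47 counts. In the livers labelled B4galt1 hep-/- it was at 19.5, 15.4 and 11.2 CPM, or 601, 509 and 341 counts. The lowest of these was about 10 times the highest control. The means were 0.585 ± 0.385 CPM (SD, n = 4) and 15.4 ± 4.15 CPM (SD, n = 3), a log2 fold change of 4.70 (SE 0.46), the third highest of 15179 genes. Without the third control, the highest of the 4, it was 5.22, and without the third B4galt1 hep-/- mouse it was 4.88. With log2(FPKM + 1) it was 2.59, since adding 1 to a low level shrinks the ratio.

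Cyp2b10, the CAR target, had 0 counts in 6 livers and 9 counts in the third B4galt1 hep-/- liver (0.296 CPM, 95% exact Poisson interval 4.12 to 17.1 counts, counting error alone). A count of 0 allows up to 3 counts at a one-sided 95% limit, which were worth 0.0690 to 0.0987 CPM in these libraries. None of the 100-base stretches of its reference transcript occurred in another gene. Cyp2b10 was thus not detected in the deposited counts of 6 of 7 livers, and no fold is given. The annotation and read treatment behind these counts are not given, so whether its reads were lost in counting was not tested.

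Levels can be set side by side across genes only per length. In the controls the order by mean FPKM was Cyp2a5 (347 ± 91.6), Cyp2a12 (317 ± 38.2), Cyp2b9 (33.4 ± 11.6), Cyp2a4 (14.1 ± 6.38), Cyp2a22 (10.2 ± 1.88) and Cyp2b13 (0.282 ± 0.195; SD, n = 4 for each). Cyp2a5 and Cyp2a12 overlapped, as did Cyp2b9 with Cyp2a4 and Cyp2a4 with Cyp2a22, so those neighbours were not ordered beyond their spread. In the livers labelled B4galt1 hep-/- the order was Cyp2a12 (453 ± 28.1), Cyp2a5 (238 ± 84.6), Cyp2a4 (106 ± 41.2), Cyp2b9 (62.8 ± 10.6), Cyp2a22 (22.6 ± 0.916) and Cyp2b13 (6.83 ± 1.96; SD, n = 3 for each). There Cyp2a12 was above Cyp2a5 without overlap, while Cyp2a4 and Cyp2b9 overlapped.

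The make-up of the Cyp2a pool differed with these levels. Cyp2a4 held 2.14% ± 1.22 of the summed Cyp2a FPKM in the controls and 13.0% ± 4.92 in the livers labelled B4galt1 hep-/-. Cyp2a5 held 49.9% ± 9.20 and 28.6% ± 7.86, Cyp2a12 held 46.5% ± 7.66 and 55.6% ± 3.75, and Cyp2a22 held 1.51% ± 0.457 and 2.79% ± 0.384 (SD, n = 4 and 3). The Cyp2a12 shares overlapped between the groups. Those of Cyp2a5 were barely apart, with 37.7% in the second control and 37.4% in the third B4galt1 hep-/- liver. Shares of a pool are tied, so a rise in any of them lowers the rest. In the Cyp2b pool Cyp2b9 remained the main transcript, at 99.1% ± 0.630 and 90.0% ± 3.04, and Cyp2b13 held 0.855% ± 0.630 and 9.89% ± 3.14. Cyp2b9 over Cyp2b13 was 204, 170, 54.6 and 181 in the controls and 6.55, 9.64 and 13.2 in the livers labelled B4galt1 hep-/-, without overlap.

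**Figure D3:**
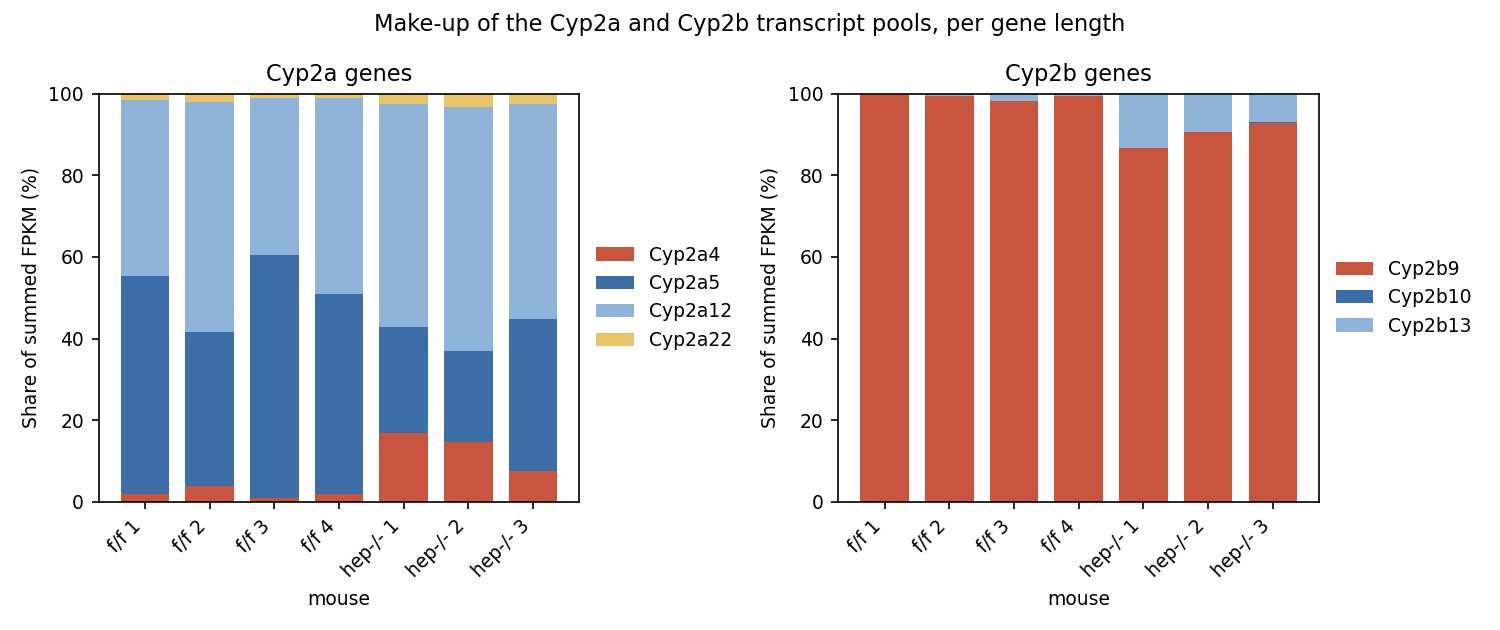
Share of each gene in the summed FPKM of the Cyp2a genes (left) and of the Cyp2b genes (right), in percent on the vertical axes, for each of 4 B4galt1 flox/flox (f/f) and 3 B4galt1 hep-/- livers along the horizontal axes. The Cyp2a4 share (red, left) is larger and the Cyp2a5 share (dark blue) smaller in the B4galt1 hep-/- livers, and the Cyp2b13 share (light blue, right) is visible mainly there.

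The 63 other tested Cyp genes had a median log2 fold change of -0.35, and 5 were called higher and 12 lower, out of the background of 15.8% of genes called in either direction. Cyp4a12a (-2.85, adjusted p = 0.00236 in edgeR's quasi-likelihood test), Cyp4a12b (-2.73, adjusted p = 0.00201) and Cyp2d9 (-2.62, adjusted p = 0.00283), P450s of male mouse liver, fell. Cyp4a12a and Cyp4a12b are near copies. Cyp3a44, a P450 of female liver, rose from 0.267 ± 0.0903 to 1.66 ± 0.866 CPM (2.62, adjusted p = 0.0113). Cyp3a11, the main drug-metabolizing Cyp3a enzyme, was at 2374 ± 561 and 1284 ± 355 CPM without overlap, and missed the threshold in edgeR (-0.89, adjusted p = 0.0510). It was called lower in 10 of 18 alternatives, DESeq2 and voom among them.

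Other genes inside and beside the cluster on chromosome 7, out to 500 kb on either side, were listed in the RefSeq order. Over the 30 tested (80 on the list, 45 in the file) their median log2 fold change was -0.00. Of these, 1 was called higher, Sertad1 (0.83), a co-regulator of the cell cycle. It lost its call without the second or the third control and without the first or second B4galt1 hep-/- mouse (0.75 to 0.88). Called lower were Ceacam1 (-1.0), Pld3 (-0.92) and Tgfb1 (-0.85). The nearby Cyp2f2, a P450 of lung and liver, was not called (-0.65), but was called lower without the third B4galt1 hep-/- mouse (-1.11) and with voom (-0.82). When each mouse was left out in turn, Tgfb1 kept its call in 2 (lost at -0.69 without the third B4galt1 hep-/- mouse, for instance), Ceacam1 in 3 and Pld3 in 7 of the 7 fits.

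Of 13 regulators known to act on Cyp2a or Cyp2b genes, 1 rose, 2 fell and 10 were not called, with a median of -0.18. The background for this and the other lists was 8.0% of all tested genes called higher and 7.83% lower. Nr1i2, which encodes the xenobiotic receptor PXR, was at 94.4, 90.6, 94.9 and 97.5 CPM in the controls and at 155, 191 and 150 CPM in the livers labelled B4galt1 hep-/-, and its log2 fold change was 0.81 (SE 0.18, edgeR adjusted p = 0.0132). Its call was lost without the second control (0.79) and with log2(FPKM + 1) over all genes above 0 (0.66). Nr1i3, which encodes CAR, was at 214, 140, 136 and 174 against 195, 254 and 269 CPM (0.53, SE 0.22, adjusted p = 0.117), with overlap.

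Rxra, the partner with which CAR and PXR bind DNA, fell from 326 ± 40 to 147 ± 17.6 CPM (-1.15, SE 0.20, edgeR adjusted p = 0.00605). Dbp, the PAR bZIP activator of the clock output, was at 163, 130, 67.8 and 179 CPM in the controls and at 43.9, 56.7 and 16 CPM in the livers labelled B4galt1 hep-/- (-1.79, SE 0.42, adjusted p = 0.0181). Rxra and Dbp kept their calls in all 7 fits without 1 mouse. The related factors Tef (-0.12, adjusted p = 0.747) and Hlf (-0.35, adjusted p = 0.212) did not pass.

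The other regulators were not called. Hnf4a, the hepatocyte receptor that binds the Cyp2a5 promoter, was at 440 ± 54.9 and 478 ± 116 CPM (0.12, edgeR adjusted p = 0.730), with a sign that turned without the third B4galt1 hep-/- mouse (-0.10) and on FPKM (-0.02). Its coactivator Ppargc1a was at 0.41 (adjusted p = 0.301), the glucocorticoid receptor Nr3c1 at -0.41 (adjusted p = 0.207) and the estrogen receptor Esr1 at 0.32 (adjusted p = 0.260). Ahr was at -0.18 (adjusted p = 0.555), Nfe2l2, which encodes NRF2, at -0.29 (adjusted p = 0.318), and Hnrnpa1, whose protein is known to bind Cyp2a5 mRNA, at -0.56 (adjusted p = 0.0772). Hnrnpa1 was called lower without the third B4galt1 hep-/- mouse (-0.75).

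The redox partners and the heme supply of P450s had 0 genes called higher and 2 lower of 8, with a median of -0.51. Fech, which inserts iron into protoporphyrin to form heme, fell from 133 ± 23.2 to 58.9 ± 8.34 CPM (-1.17, SE 0.21, edgeR adjusted p = 0.00662). Cyb5b, the cytochrome b5 of the mitochondrial outer membrane, fell from 151 ± 25.4 to 67.4 ± 20.1 CPM (-1.17, SE 0.25, adjusted p = 0.0118). Por, the electron donor of all microsomal P450s, was at 573 ± 108 and 452 ± 120 CPM (-0.34, adjusted p = 0.346). Cyb5a (0.18, adjusted p = 0.670), Cyb5r3 (-0.19, adjusted p = 0.554) and Pgrmc1 (-0.19, adjusted p = 0.691) did not pass. Neither did Alas1, the first step of heme synthesis (929 ± 143 to 504 ± 214 CPM, -0.88, adjusted p = 0.0585), nor the heme oxygenase Hmox1 (-0.67, adjusted p = 0.0842). Alas1 was called lower in 6 of 18 alternatives, among them DESeq2 and the fit without the third B4galt1 hep-/- mouse (-1.26).

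Among 18 other genes known to respond to CAR, 1 was called higher and 5 lower, with a median of -0.77. Ugt1a1, the bilirubin glucuronosyltransferase, which shares exons with its neighbours, fell from 178 ± 66.3 to 18.6 ± 14.7 CPM (-3.26, edgeR adjusted p = 0.00389; -4.14 without the third B4galt1 hep-/- mouse), and Aldh1a1, a retinaldehyde dehydrogenase, fell by 1.47 on the log2 scale (adjusted p = 0.00881). The export pump Abcc2 (-0.96) and the epoxide hydrolase Ephx1 (-0.87) also fell, and were called in 3 and 6 of the 7 fits without 1 mouse. The others called, Abcc3 (lower, -0.74) and Gadd45b (higher, 0.84), were named after their values were seen. The 9 genes that respond to NRF2 had 0 called higher and 1 lower, the thioredoxin reductase Txnrd1 (-0.73, adjusted p = 0.0449), whose call held in 2 of those 7 fits and was lost, for instance, without the third B4galt1 hep-/- mouse (-0.83). Gclc and Gclm, the subunits of glutamate-cysteine ligase, were at 0.15 and -0.31 and did not pass.

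Other genes expressed more in female than in male mouse liver were examined, since Cyp2a4, Cyp2b9 and Cyp2b13 belong with them. Of 26 on the list 20 were tested, and 4 rose and 2 fell, with a median of 0.59. Sult2a1 was at 0.161, 0.803, 0.398 and 0.0283 CPM in the controls and at 17.0, 12.6 and 33.9 CPM in the livers labelled B4galt1 hep-/- (5.90, SE 0.63, edgeR adjusted p = 0.00141). The Sult2a1 control values were low, and the fourth lay below the 0.0848 CPM that 3 counts were worth in that library. Sult2a2 went from 2.66 ± 3.05 to 56.0 ± 22.1 CPM (4.4, adjusted p = 0.00732). Without the second control, the highest for both, the log2 fold changes were 6.68 for Sult2a1 and 5.54 for Sult2a2. Both are hydroxysteroid sulfotransferases and near copies of each other. The remaining 2 that rose were Cyp3a44 and Cux2, a repressor of male-biased genes, at 1.69 ± 0.612 and 6.91 ± 4.34 CPM (2.03, adjusted p = 0.0145), which lost its call without the second B4galt1 hep-/- mouse (1.41). Ntrk2, a neurotrophin receptor, fell (-2.09, adjusted p = 0.00352), as did Cyp4a14, a fatty acid hydroxylase (-0.72, adjusted p = 0.0429). Fmo2, a flavin-containing monooxygenase, did not pass (0.51, adjusted p = 0.339).

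Of 26 genes expressed more in male liver 23 were tested, and 0 rose and 11 fell, with a median of -1.24. Slco1a1, an organic anion transporter, was at 6.71, 0.778, 5.25 and 8.59 against 0.162, 0.0302 and 1.18 CPM (-3.54, edgeR adjusted p = 0.0302), and Ugt2b38 was at -3.40 (adjusted p = 0.0293). Both rest on few counts, and their calls held in 3 and 4 of the 7 fits without 1 mouse. Without the third B4galt1 hep-/- mouse the fitted log2 fold changes were -5.78 for Slco1a1 and -6.52 for Ugt2b38, the latter against 0.0325 and 0 CPM and so no bound, and without the second Ugt2b38 was at -2.80. Mup7, a urinary pheromone carrier with many near copies, fell by 3.34 on the log2 scale (adjusted p = 0.00976; not called with voom, -2.57), and Cyp4a12a fell as given above. Mup20 (-0.45, adjusted p = 0.401) and Mup3 (-0.04, adjusted p = 0.950), the most abundant of those not called, did not pass. The count called lower went down to 5 without the fourth control. Both lists were compiled with results of these data known, so they are no independent evidence of a direction.

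The growth hormone axis had 2 of 11 genes called higher, Cux2 and Socs2, and 0 lower. Socs2, a STAT5 target that dampens the receptor, was at 25, 39, 9.68 and 28.5 CPM in the controls and at 55.0, 53.2 and 78.3 CPM in the livers labelled B4galt1 hep-/- (1.28, SE 0.36, edgeR adjusted p = 0.0333). Its call was lost without the first (1.27) or the fourth (1.34) control and without the first (1.34) or the third (1.07) B4galt1 hep-/- mouse. Igf1 (554 ± 167 to 903 ± 216 CPM, 0.71, adjusted p = 0.0909) and the receptor Ghr (209 ± 44.4 to 120 ± 48.8 CPM, -0.80, adjusted p = 0.0797) did not pass. Ghr was called lower without the third B4galt1 hep-/- mouse (-1.13), with DESeq2 and with voom, and Igf1 was called higher without the fourth control (0.93), with DESeq2 and with voom.

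Hepatocytes near the central vein carry much of the drug metabolism of the liver, Cyp2a5 included. Of 13 pericentral genes 0 rose and 7 fell, with a median of -1.08. Rhbg, an ammonium transporter, fell by 2.02 on the log2 scale (edgeR adjusted p = 0.0230, lost without the first B4galt1 hep-/- mouse, -1.72, and -3.21 without the third), and the ornithine aminotransferase Oat by 1.76 (adjusted p = 0.00943). The glutamate transporter Slc1a2 (-1.57, adjusted p = 0.00540) and Cyp2e1, the ethanol-oxidizing P450 (9307 ± 423 to 3739 ± 1405 CPM, -1.32, adjusted p = 0.0145), also fell. Cyp1a2, another pericentral P450, was at -0.81 (adjusted p = 0.0766) and was called lower with DESeq2 and without the third B4galt1 hep-/- mouse (-1.14). The transcription factor Tbx3 was at 0.52 (adjusted p = 0.378). Of 12 periportal genes 0 rose and 1 fell, the aldehyde dehydrogenase Aldh1b1 (-0.81, adjusted p = 0.0316), called in 3 of the 7 fits without 1 mouse. Pck1, the gluconeogenic enzyme, was at 0.18 and did not pass.

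**Figure D4:**
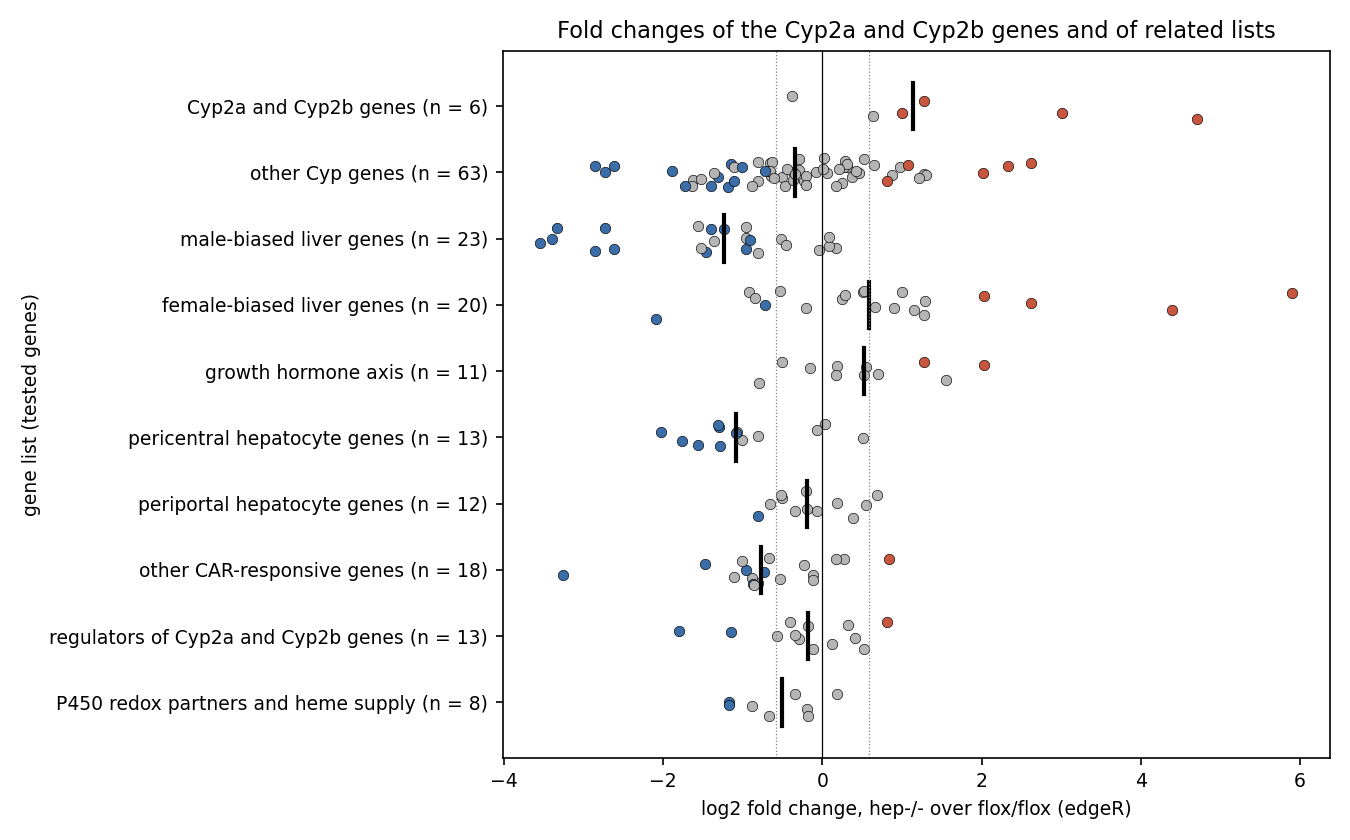
Log2 fold change from edgeR (horizontal axis, B4galt1 hep-/- over B4galt1 flox/flox) of the 6 tested Cyp2a and Cyp2b genes and of the tested genes of 9 related lists (rows, 1 point a gene); red points were called higher, blue lower and grey not called, black bars are medians, and dotted lines mark 0.58 in either direction. Medians run from -1.24 for the male-biased genes to 1.14 for the Cyp2a and Cyp2b genes, which were chosen on this contrast.

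The macrophage markers that were lower in the same livers were Lyz2 (-2.15, edgeR adjusted p = 0.00380), Adgre1 (-1.88, adjusted p = 0.0159, and -1.27 without the third control), Gpnmb (-1.72, adjusted p = 0.00691), Cd68 (-1.15, adjusted p = 0.0103) and, named after its value was seen, Trem2 (-0.83, adjusted p = 0.0254). Cholangiocyte (6), stellate and fibroblast (8) and lymphocyte (8) markers had 0 called, and 1 of 6 endothelial markers, Kdr, was lower. The median log2 fold change of the 10 hepatocyte markers was 0.27.

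Variation within groups was compared between the genes of the cluster, with 0.5 CPM added before the log. Over 7 mice the correlations, from -0.47 to 0.66, cannot tell shared from separate variation. Of the 15 pairs, the deviations of log2 CPM from the group means correlated most between Cyp2a4 and Cyp2a22 (r = 0.66), Cyp2a12 and Cyp2b9 (0.60) and Cyp2a12 and Cyp2a22 (0.60), and those of Cyp2b9 and Cyp2b13 at 0.30 (Pearson, n = 7 mice each, no test). Among 10766 other genes, the closest to Cyp2a4 by this measure were Gldn (0.998), Plpp5 (0.976) and Unc119 (0.967), and the closest to Cyp2b13 were Lims1 (0.996), Zfp277 (0.993) and Mxi1 (0.988). Glrx, Tmem14c and Khk were closest to Cyp2a5 (0.977 to 0.993), and Ndufa10, Ndufa12 and Zfp655 to Cyp2a12 (0.991 to 0.992). Alg9, Apoa4 and Ltv1 were closest to Cyp2a22 (0.981 to 0.987), and Fbxo4, Polr3g and Cwc22 to Cyp2b9 (0.976 to 0.983). These are the highest of so many values over 7 mice and are given as a description.

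**Figure D5:**
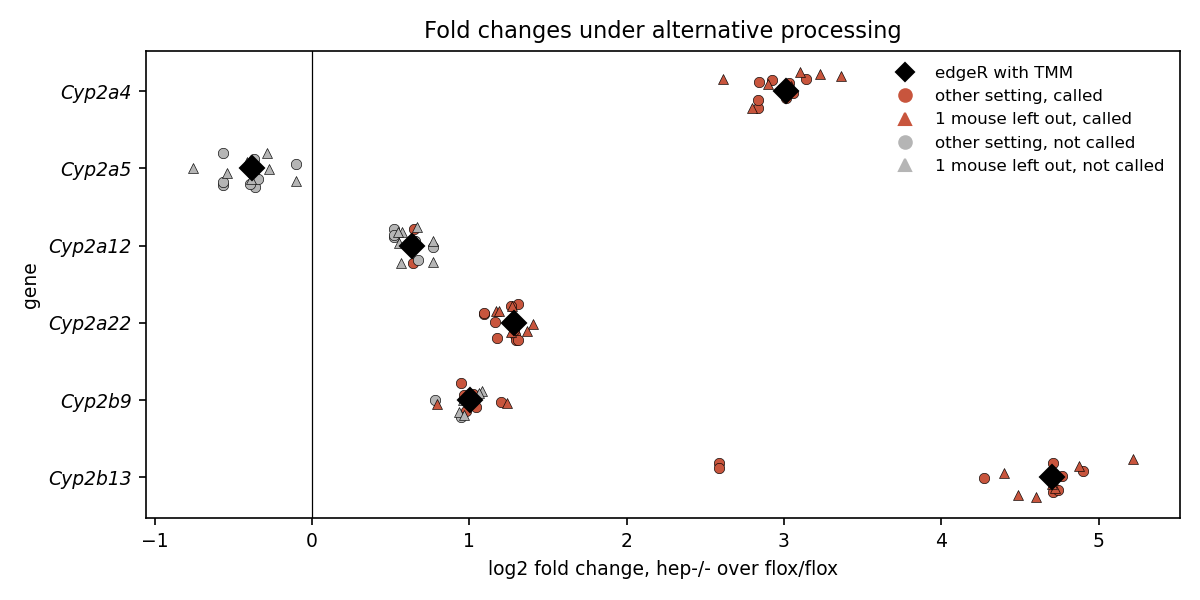
Log2 fold change (horizontal axis, B4galt1 hep-/- over B4galt1 flox/flox) of the 6 tested genes (rows) in the edgeR fit (diamond) and in up to 18 other settings, circles for other filters, scalings or models and triangles for fits without 1 mouse; red marks were past both thresholds and grey marks were not. Cyp2a4, Cyp2a22 and Cyp2b13 are red throughout, Cyp2b9 in 11 of 18, and Cyp2a5 in 0.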

How the data were processed

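Liver RNA of 7 mice was extracted with TRIzol and made into libraries with the VAHTS Universal V6 kit. The submitters' processing notes name fastp, HISAT2, HTSeq, DESeq2, R 3.2.0 and GRCm39. The annotation, the strand setting and the treatment of reads matching several genes are not given in the sources used here. The authors deposited raw counts (whole numbers, not normalized) and FPKM values of the same genes and mice. In the 13374 genes that reached 10 counts in all mice, the deposited FPKM equalled count over total and a fixed length within 1%. No column of sample values was left unused (0 columns).

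The filter filterByExpr, with a minimum count of 10 and a minimum total of 15, kept 15179 of 23347 genes. TMM scaling and a quasi-likelihood fit of group over all 7 mice were run in edgeR 4.0.16 (R 4.3.3), with Benjamini-Hochberg adjustment over all genes tested. Calls needed an adjusted p below 0.05 together with a log2 fold change beyond 0.58 in size. The statistics were tested on simulated counts first. DESeq2 1.42.0 and limma 3.58.1 (voom, and log2 FPKM with 1 or 0.1 added), other scalings and filters, each mouse left out, summed near copies and a replicate block were alternatives. Livers of chow-fed mice were not used here.

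The Cyp2a and Cyp2b genes, the lists and the tests were chosen with earlier results of these data known. Named from each list were all regulators, redox partners and sex chromosome transcripts, and from longer lists up to 4 called genes with the largest fold change plus up to 2 with the highest mean CPM that were not called. Values of 2 of these genes are not reported here. The 3 genes most like each member were picked among those with a mean FPKM of at least 1. Promoters came from RefSeq (GRCm38.p6, all 9 genes matched) and transcripts from GENCODE M21, a different build from that of the files, so no coordinates of the files are given. Promoters and transcripts were aligned with Biopython 1.88.

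Each mouse is 1 animal and 1 library. Totals of 30608271 to 39668509 counts put 3 counts at 0.0690 to 0.0987 CPM. Replicate numbers are shared by different animals. Their deviations correlated at -0.42, -0.10 and 0.09, so they were not treated as pairs. No 2 libraries agreed within sampling noise (lowest chi-square per gene of any pair 60.3).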

Additional observations from a re-analysis of the deposited data

Results flagged for a closer look

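Of 27 sets of 4 control values that were checked for a mouse standing apart, 1 met the criterion, and chance alone gives about 1 in 20. Ahr, which encodes the aryl hydrocarbon receptor, was at 55.8 CPM in the third B4galt1 flox/flox liver and at 41.3 to 43.7 CPM in the other controls. The gap was 0.831 of the range, just above the critical value for 4 values. None of the Cyp2a or Cyp2b genes was set apart in this way.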

How the results depend on the processing

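Under 18 alternatives (17 for Cyp2b13, which has no value when every mouse must have 10 counts), Cyp2a4 (2.61 to 3.36), Cyp2a22 (1.10 to 1.40) and Cyp2b13 (2.59 to 5.22) stayed past both thresholds, while in sums of near copies, counted apart, the calls of Cyp2a4 (0.0798 with Cyp2a5) and Cyp2a22 (0.672 with Cyp2a12) were lost. The sum of Cyp2b9, Cyp2b10 and Cyp2b13 was called higher (1.15, SE 0.28), below the range given for Cyp2b13 alone. Of the 18 alternatives, Cyp2b9 passed in 11 (0.78 to 1.24), 2 of them among the 7 fits that left out 1 mouse. Cyp2a12 passed in 2 (0.52 to 0.77) and Cyp2a5 in 0 (-0.75 to -0.10), with a turned sign in its sum with Cyp2a4 (0.0798). Female-biased genes called higher numbered 4, 7 when 1 count in any mouse sufficed, 1 when every mouse needed 10 counts and 2 with log2(FPKM + 0.1). Those called lower numbered 2, 4 with DESeq2, voom or 10 counts in every mouse, 1 with a replicate block, and 1 to 4 without 1 mouse. Male-biased genes called lower numbered 11, and 5 to 12 without 1 mouse (5 without the fourth and 7 without the second control, 6 without the first or the second B4galt1 hep-/- mouse). The cause of these changes was not tested. Among named genes the replicate block took away the calls of Cyp3a44 (2.45), Nr1i2 (0.82), Ephx1, Txnrd1, Aldh1b1, Tgfb1 and Sertad1, and log2(FPKM + 1) over all genes those of Nr1i2, Cux2, Socs2, Slco1a1, Adgre1, Cd68, Ceacam1, Pld3, Tgfb1, Sertad1, Dbp and Cyp2b9. Voom took away those of Cyp2b9, Slco1a1 and Mup7. The replicate block gave 1267 called genes against 2404 and 885 remained in number without the second control. On log2(FPKM + 1) 24.5% of calls were higher, against 50.5%, with a median shift of -0.12. DESeq2 called 3281 genes. Signs turned for these uncalled genes, with the range over fits without 1 mouse in brackets: Gstm1 (-0.284 to 0.0419), Mup3 (-0.335 to 0.237, 0.113 with voom, 0.170 with the replicate block), Pgrmc1 (-0.502 to 0.0771), Tbx3 (-0.0949 to 0.830), Tef (-0.373 to 0.0331) and Hnf4a (-0.103 without the third B4galt1 hep-/- mouse to 0.238, and -0.0218, -0.0220 and -0.0218 on log2(FPKM + 1), log2(FPKM + 0.1) and log2(FPKM + 1) of all genes).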
